A study of Homo sapiens with 8 samples.

Results

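The introns described here held intronic reads in vehicle-treated cells, without the drug. They were chosen by 4 conditions: neither the first nor the last intron listed for their gene, a length of at least 100 and under 20000 bases, at least 20 reads in each of the 8 libraries, and an intronic share of at least 10% in both input libraries from vehicle-treated cells. The intronic share is the number of reads inside an intron divided by the total listed for that intron, which counts reads inside it and, as far as the files show, reads spliced across it. These conditions left 1501 introns of 1186 genes, among 142224 listed introns of 15902 genes and among 18853 introns that met the position, length and read conditions. The other 17352 of those serve as the comparison.

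The cells were of SUM159, an established line of human breast cancer that is triple-negative and has mesenchymal features. All were exposed for 12 hours either to DMSO, the vehicle, or to H3B-8800, a splicing modulator whose target is SF3b, a complex within the spliceosome. RNA was then either sequenced directly (input) or first enriched with J2, an antibody that recognises double-stranded RNA. Each of the 4 groups (input vehicle, input drug, J2 vehicle, J2 drug) had 2 libraries from biological duplicates, every library was poly(A)-selected and strand-specific, and all groups came from this 1 line.

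Introns are removed from pre-mRNA by the spliceosome, which first recognises the 5′ splice site, the branch point and the polypyrimidine tract and AG at the 3′ end. SF3b, part of the U2 particle, holds the branch point adenosine, and compounds of the H3B-8800 class interfere with that step. Some introns leave the transcript slowly or incompletely in normal cells. Such detained or retained introns often sit in genes for RNA-binding and splicing proteins, where they or the poison exons inside them tune the protein's own level.

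The sequences of 8 short introns come first, and none of them is an example of the falls covered below. They were taken from GENCODE transcripts that carry the intron as exon sequence (GRCh38 letters), 5′ to 3′, with the first 8 bases and the last 3 bases, the ends that the splice sites occupy, in capitals. Among 10 coding introns of at most 300 bases that could be read whole in this way, had at least 100 reads in every library and overlapped no other exon, the first 4 below had the largest change in the J2 libraries and the next 3 were among the 4 with the smallest, and EDC4 carries the 5′ end typical of the minor, U12-type spliceosome.
GTPBP2 intron 5, chr6:43625063-43625362, minus strand: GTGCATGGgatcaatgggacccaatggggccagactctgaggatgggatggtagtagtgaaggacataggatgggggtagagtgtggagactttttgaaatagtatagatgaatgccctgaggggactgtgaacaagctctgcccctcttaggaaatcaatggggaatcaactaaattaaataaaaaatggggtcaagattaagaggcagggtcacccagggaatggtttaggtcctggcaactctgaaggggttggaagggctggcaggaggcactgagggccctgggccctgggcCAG
DVL1 intron 4, chr1:1341806-1342052, minus strand: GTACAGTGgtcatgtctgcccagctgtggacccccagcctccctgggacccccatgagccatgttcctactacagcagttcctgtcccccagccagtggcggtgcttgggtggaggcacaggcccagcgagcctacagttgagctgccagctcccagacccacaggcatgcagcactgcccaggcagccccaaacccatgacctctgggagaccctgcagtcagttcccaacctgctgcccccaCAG
HNRNPL intron 7, chr19:38840377-38840487, minus strand: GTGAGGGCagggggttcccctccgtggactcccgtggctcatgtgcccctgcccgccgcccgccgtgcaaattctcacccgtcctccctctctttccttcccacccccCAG
PITPNM1 intron 4, chr11:67502087-67502291, minus strand: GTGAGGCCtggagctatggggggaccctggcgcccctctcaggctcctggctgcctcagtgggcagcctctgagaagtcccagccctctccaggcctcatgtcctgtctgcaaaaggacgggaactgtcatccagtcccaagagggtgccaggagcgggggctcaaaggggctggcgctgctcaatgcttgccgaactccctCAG
U2AF1L4 intron 3, chr19:35744146-35744322, minus strand: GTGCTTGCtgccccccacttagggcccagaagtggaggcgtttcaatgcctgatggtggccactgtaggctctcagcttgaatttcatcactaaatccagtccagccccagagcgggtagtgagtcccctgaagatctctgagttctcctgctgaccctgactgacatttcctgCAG
KRT15 intron 2, chr17:41516965-41517082, minus strand: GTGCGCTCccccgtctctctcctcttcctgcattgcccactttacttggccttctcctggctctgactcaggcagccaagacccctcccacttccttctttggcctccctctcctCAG
JMJD8 intron 2, chr16:683910-684065, minus strand: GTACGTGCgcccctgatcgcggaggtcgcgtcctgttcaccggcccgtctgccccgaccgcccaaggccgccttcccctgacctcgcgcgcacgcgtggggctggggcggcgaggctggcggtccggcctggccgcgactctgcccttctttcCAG
EDC4 intron 22, chr16:67881846-67881953, plus strand: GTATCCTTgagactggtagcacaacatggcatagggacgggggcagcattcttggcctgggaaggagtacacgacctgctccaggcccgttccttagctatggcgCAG
The mean intronic share in J2 vehicle and J2 drug was 15.2% and 98.5% for GTPBP2, 11.7% and 77.7% for DVL1, 8.95% and 71.3% for HNRNPL, and 34.98% and 86.9% for PITPNM1. It was 56.7% and 88.8% for U2AF1L4, 39.2% and 77.6% for KRT15, and 36.4% and 56.9% for JMJD8. EDC4 stood at 19.6% and 27.5%. All 8 open with GT and close with AG. Pyrimidines made up 45% to 95% of the 20 bases before the last 3 in the first 4 introns and 65% to 90% in the next 3, so this stretch did not separate them. GC content ran from 51.7% to 69.4% in the first 4 and from 55.4% to 75% in the next 3.

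Depth was even across the libraries. The total behind the deposited values was 47000000 to 57000000 reads, of which 12612577 to 14643731 per library fell in the listed introns or their junctions. The median intron chosen had 97 to 128 reads in a library. At the minimum of 20 reads, a share of 10% has a 95% Wilson interval of 2.79% to 30.1%, and at 100 reads of 5.52% to 17.4%, counting error only. Of 14 mesenchymal markers 12 had at least 1 RPM of spliced reads in all 8 libraries, against 4 of 12 luminal and epithelial markers and 1 of the 11 listed immune and blood markers.

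Other annotated exons overlapped most of these introns, which are therefore called here by the rule that chose them. Only 378 of the 1501 (25.2%) were free of other annotated exons, leaving aside exons that span the whole intron, against 66.5% of the other 17352. An exon of the same gene from another transcript overlapped part of 70.4% of them and of 29.8% of the others, and 33.0% against 7.83% had such an exon wholly inside. Exons of another gene on the same strand overlapped 3.73% against 0.640%, exons on the opposite strand 9.26% against 4.50%, and small RNA genes 2.53% against 1.41%. How reads from such exons were counted is not given in the sources used here, and their part in the shares was not tested. An exon that spans the whole intron, the annotation's own retained-intron transcript, existed for 14.5% against 9.86%.

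The introns were long. Their median length was 2527 bases (quartiles 1088 and 5265) against 864 bases (312 and 2185) for the others, and 20.8% of the eligible introns of 5000 or more bases were chosen against 2.88% of those under 500 bases. A long intron collects reads over more bases while the spliced count comes from 1 junction, so the share at a given density rises with length. Per 100 bases of intron and 100 spliced reads, the median in J2 vehicle was 8.87 intronic reads for chosen introns under 500 bases. It was 0.742 for those of 5000 or more. The rule sets the same minimum share at every length, so part of this difference in density is built into the choice. The exons on either side had a median GC content of 56.4%, against 56.6% for the others. Place in the gene did not set them apart: the median relative position was 0.5 in both sets. Of the genes concerned, 951 had 1 such intron, 175 had 2, 43 had 3, 14 had 4 and 3 had 5.

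Neighbouring introns mostly did not share the high level. Of 1943 next-listed introns of the same gene with at least 20 reads in every library, 17.0% had a mean share of at least 10% in J2 vehicle, against 5.88% of the neighbours of the other introns, and their median share was 0.943% there and 6.45% in J2 drug. Splicing across the chosen introns themselves was close to that across their neighbours. Where both neighbours could be measured (772 introns), spliced reads in J2 vehicle were 0.952 times the neighbours' mean in the median (quartiles 0.755 and 1.17), against 1.01 for the others. Few introns lacked spliced reads: 29 had under 5 in both input vehicle libraries.

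The share was 26.6% and 25.7% in the median in the 2 input vehicle libraries, which chose the introns, and 23.1% and 23.3% in the 2 J2 vehicle libraries, which did not. In J2 vehicle 1044 introns (69.6%) were at or above 10% in both libraries and 283 were below it in both, whereas 1.14% of the other introns reached it in both. With drug the medians were 62.5% and 61.5% in input and 61.1% and 59.8% in J2. The other introns had a median of 0% in all 4 vehicle libraries and of 0.952% to 1.66% in the 4 drug libraries. The input drug libraries cannot be tested against the vehicle libraries that chose the introns. As a description, 1225 introns had a higher and 270 a lower mean share in input drug than in input vehicle, with a median difference of 20.1 percentage points (quartiles 3.23 and 42.4).

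**Figure D1:**
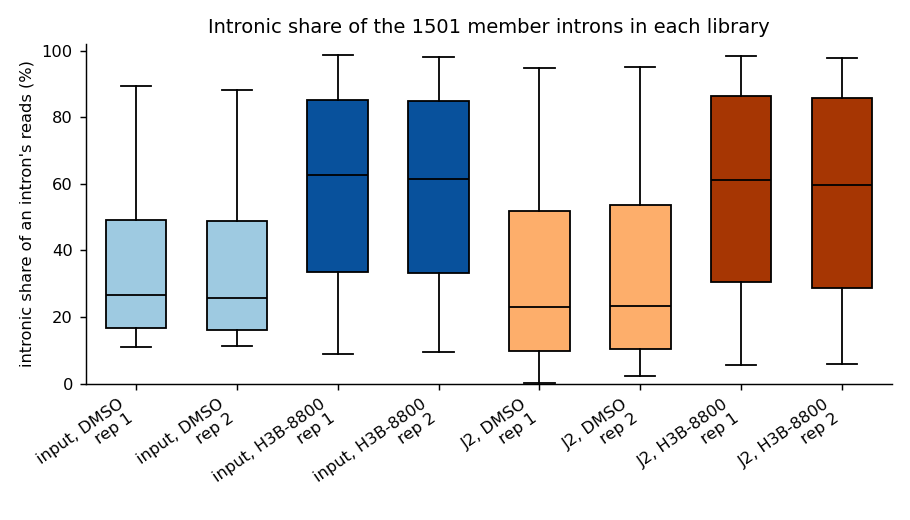
Intronic share (%) of the 1501 introns in each of the 8 libraries. Boxes span the quartiles, black lines are medians and whiskers reach the 5th and 95th percentiles; both libraries of a group lie close together, with medians of 23.1% to 26.6% with DMSO and 59.8% to 62.5% with H3B-8800.

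Close to the 10% limit the choice was fine-grained. Among introns with at least 200 reads in each input vehicle library, the lowest chosen were in ABHD12 (10.04% and 10.7%), PNPLA2 (10.1% and 10.4%) and ZFPL1 (11.9% and 10.1%), and the highest not chosen in PSMB10 (9.98% and 10.1%), VEGFB (12.2% and 9.92%) and ARRDC1 (13.3% and 9.89%). In J2 vehicle PNPLA2 stood at 4.92% and 4.08% and in J2 drug at 58.9% and 57.6%. VEGFB, just outside, stood at 7.78% and 7.91%, then 27.1% and 28.9%.

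The intronic reads of the chosen introns made up 27.1% and 26.8% of all intronic reads in input vehicle (replicates 1 and 2), 29.7% and 29.4% in J2 vehicle, 23.8% and 20.5% in input drug and 23.1% and 22.8% in J2 drug. 1 intron weighs on these values. Intron 4 of HFM1, a meiotic DNA helicase gene, at chr1:91385835-91394092, held 4632 and 7268 reads in input vehicle, 142704 and 14052 in input drug, 2114 and 15270 in J2 vehicle and 2730 and 1998 in J2 drug, nearly all of them inside the intron. No other exon is annotated over it, and its share was close to 100% in every library. Input drug replicate 1 stood apart, where HFM1 alone took 8.64% of all intronic reads. In J2 vehicle HFM1 took 0.422% and 2.62%. The chosen introns other than HFM1 held 26.1% and 25.4% in input vehicle and 29.3% and 26.8% in J2 vehicle. With drug they held 15.2% and 19.5% in input and 22.96% and 22.65% in J2. These are percentages of all intronic reads, with those of HFM1 still counted in the total.

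The question of the J2 libraries was whether H3B-8800 changed the balance of intronic to spliced reads in RNA recovered by the antibody. It did so for 791 of these introns, nearly always upward. The ratio rose for 745 introns (49.6%) and fell for 46 (3.07%), and 710 did not pass the test (edgeR quasi-likelihood test, Benjamini-Hochberg adjusted p under 0.05 over all 30262 introns fitted). Over all 30262 introns 30.8% rose and 0.836% fell. These percentages, here and below, are not like for like. The rule chose introns with intronic reads, while the other 17352 had a median share of 0% in J2 vehicle. An intron without intronic reads there cannot fall, and one with few gives the test little to work with. The share called is thus in part built into the choice. The median log2 change was 1.90 for the chosen introns (quartiles 0.49 and 3.48) and 1.91 over all introns fitted, so the medians lay close together. Among the 378 introns free of other exons 220 rose and 5 fell, with a median of 2.68. Among the 1123 with other exons 525 rose and 41 fell, with a median of 1.62. The other 17352 introns did not follow this order: 25.6% of the free ones rose, against 29.35% of all of them. In these bulk libraries, more cells that hold an unspliced transcript and more of it per cell cannot be told apart.

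The direction of these counts rests on comparing intronic with spliced reads inside a library. Scaling intronic and spliced reads separately shifts the scale of the log2 ratio by -2.01 (median-of-ratios) or -1.74 (TMM). Median-of-ratios factors rest on introns with reads of the kind in question in all 8 libraries. The median log2 change became -0.083 or 0.19 for the chosen introns and 0.58 or 0.76 over all introns fitted. Not every fitted ratio therefore moved by the full shift. The counts then became 273 higher and 244 lower, against 3713 and 1632 of all 30262 introns, or 319 higher and 200 lower, against 4290 and 1345. Read this way, they say which introns changed more or less than the level that the scaling takes as unchanged.

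Both terms of the ratio moved. Depth-scaled intronic reads rose for 861 introns and fell for 118 (30.1% and 1.5% of all introns fitted), with a median log2 change of 1.37. Spliced reads rose for 273 and fell for 700 (23.7% and 45.7% of all introns fitted), with a median of -0.53 against -0.30 over all. Of the 745 introns whose ratio rose, 655 had more intronic reads, 483 had fewer spliced reads and 393 had both. Of the 46 whose ratio fell, 27 had fewer intronic reads and 33 had more spliced reads. The 2 terms depend on the scaling between libraries, and with median-of-ratios factors intronic reads rose for 370 and fell for 541, against 4389 and 2253 of all 30262 introns, and spliced reads rose for 394 and fell for 578, against 10569 and 10383. Without J2 drug replicate 2 the 118 falls in intronic reads became 76.

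**Figure D2:**
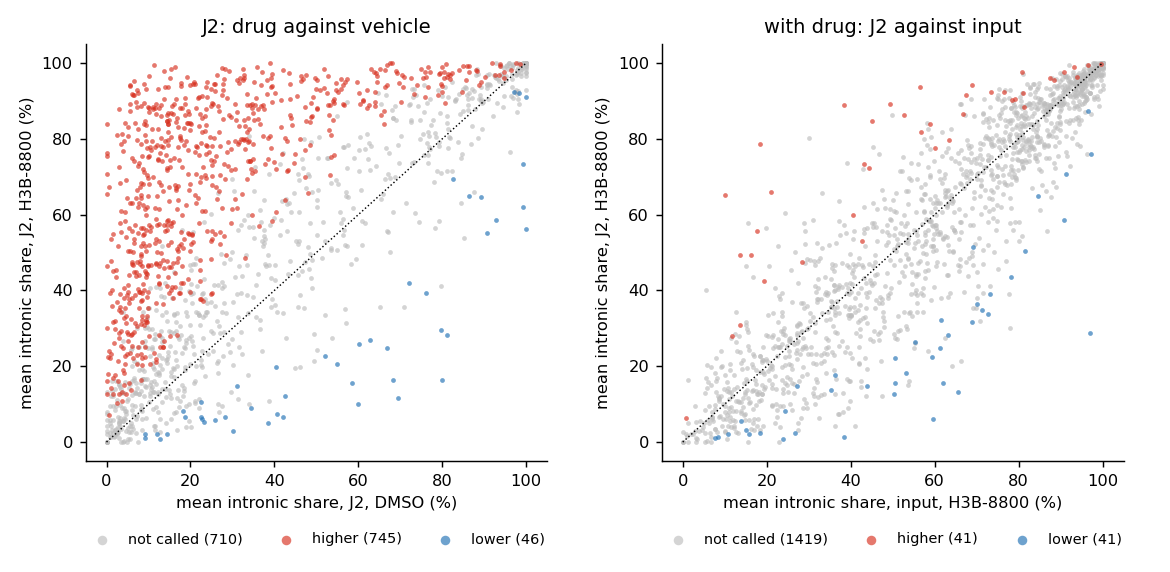
Mean intronic share (%) of each of the 1501 introns over 2 libraries, J2 drug against J2 vehicle on the left and J2 drug against input drug on the right. Dotted lines mark equal shares, and colours give the edgeR call; on the left 745 introns are called higher and 46 lower, on the right 41 each way.

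The 3 largest rises among introns free of other exons brought the share close to 100%. Intron 4 of TYRO3, a receptor tyrosine kinase of the TAM family, at chr15:41562719-41564183, had a share of 12.2% and 20.6% in J2 vehicle and 98.4% and 99.2% in J2 drug, a log2 change of the ratio of 8.64 ± 0.66 (SE, adjusted p = 6.30e-37). Intron 5 of GTPBP2, a GTP-binding protein of ribosome rescue whose sequence stands above, went from 14.2% and 16.3% to 98.7% and 98.3%, a change of 8.51 ± 0.38 (SE, adjusted p = 4.78e-110). Intron 2 of INF2, a formin that builds and severs actin filaments, at chr14:104701757-104703104, went from 12.9% and 14.5% to 97.4% and 98.5%, a change of 8.27 ± 0.35 (SE, adjusted p = 2.99e-123). In these 3 introns the drug libraries lay far above the vehicle libraries, with no overlap. In input, given as a description, the shares were 14.8% and 12.1% against 95.3% and 91.2% for TYRO3, 20.97% and 20.5% against 97.6% and 98.3% for GTPBP2 and 13.6% and 10.3% against 97.7% and 98.04% for INF2. INF2 had between 369 and 5160 reads in a library.

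Others started low in the J2 vehicle libraries. Intron 5 of SUGP2, a G-patch protein, had 1.02% and 0% in J2 vehicle and 63.9% and 70.8% in J2 drug, a change of 8.04 (adjusted p = 7.85e-13). Intron 8 of the transcription factor gene SIM2 was at 0 intronic reads in both J2 vehicle libraries and at 28.2% and 31.9% in J2 drug, and intron 5 of REXO1 went from 0% and 4.92% to 81.2% and 80.8%. The input vehicle shares that chose them were 10% and 17.9%, 10.7% and 12.7%, then 14.7% and 11.4%. The remaining large rises were intron 27 of AP3D1, a subunit of the AP-3 adaptor, from 11.8% and 8.29% to 95.97% and 96.9%, intron 11 of PCID2, a subunit of the TREX-2 export complex, from 7.20% and 10.5% to 92.7% and 96.05%, intron 12 of GLYR1, a nucleosome-binding protein, from 4.46% and 6.78% to 85.5% and 89.2%, and intron 3 of OSBPL5, a lipid transfer protein, from 28.1% and 30.1% to 99.4% and 96.2%. Adjusted p for these 7 introns ran from 5.33e-75 (AP3D1) to 2.12e-04 (SIM2).

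The deepest introns free of other exons gave the most precise values and a wide range of responses. Intron 28 of ITGA5, the fibronectin receptor alpha 5 integrin, at chr12:54397488-54398596 with 1377 to 3247 reads in a library, stood at 22.3% and 23.2% in input vehicle, 23.4% and 24.4% in input drug, 25.6% and 24.3% in J2 vehicle and 30.1% and 28.3% in J2 drug. Its J2 ratio change of 0.31 ± 0.28 (SE, adjusted p = 0.484) did not pass the test, while its intronic reads changed by -0.88 (adjusted p = 1.54e-10) and its spliced reads by -1.19 (adjusted p = 9.33e-09) on the log2 scale, both downward. Intron 3 of EMD, which encodes the inner nuclear membrane protein emerin, at chrX:154380020-154380233, rose from 15.3% and 15.4% to 58.3% and 57.5%, a change of 2.92 ± 0.29 (SE, adjusted p = 5.93e-23). Intron 7 of HNRNPL, a CA-repeat-binding splicing regulator, rose from 8.70% and 9.20% to 70.5% and 72.2%, a change of 4.66 ± 0.32 (SE, adjusted p = 1.90e-46). ITGA5 thus stayed within a few points of its vehicle level where EMD and HNRNPL left theirs.

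Among the other deep introns, intron 14 of SORBS3, the adhesion protein vinexin, rose from 11.2% and 8.99% to 51.7% and 52.4% and intron 4 of KRT80, a type II keratin, from 8.10% and 8.82% to 35.1% and 31.6%. Intron 6 of RBCK1, a subunit of the linear ubiquitin ligase complex, rose from 34.4% and 35.4% to 76.5% and 73.1%. Intron 6 of DAZAP1, an RNA-binding protein, began higher, at 36.9% and 44.04%, and reached 60.8% and 60.6%, a change of 1.18 ± 0.30 (SE, adjusted p = 4.39e-04) that turned to -0.83 or -0.55 when intronic and spliced reads were scaled separately. Intron 25 of the fibrillar collagen gene COL5A1 stood at 68.9% and 64.5% in J2 vehicle and at 80.1% and 75.1% in J2 drug, a change of 0.79 ± 0.34 (SE, adjusted p = 0.0615) that did not pass. In all 5 the drug libraries lay above both vehicle libraries.

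**Figure D3:**
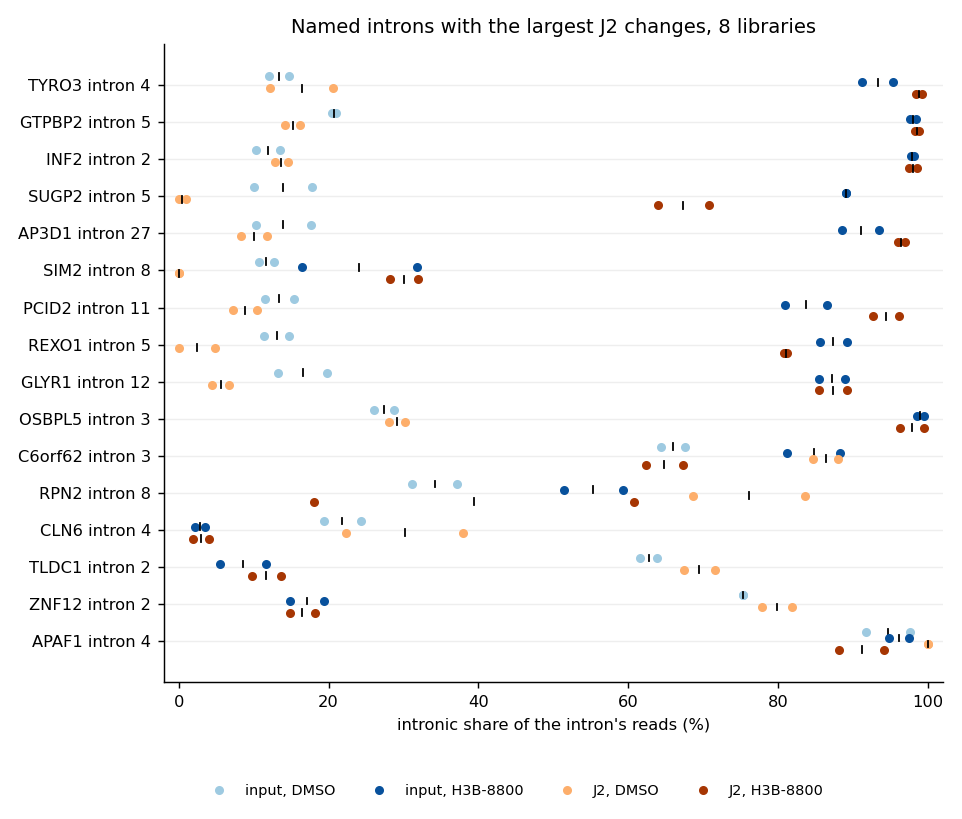
Intronic share (%) in each of the 8 libraries (points) with group means (black ticks) for the introns with the largest J2 changes, ordered by the log2 change. The 10 upper introns moved up with drug in J2, and the lower 6 lie below their J2 vehicle level.

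Falls were few, 46 in all and 29 without J2 drug replicate 2. Only 3 introns free of other exons met the rule for naming, and 2 of them were less firm. Intron 3 of C6orf62, at chr6:24708912-24714317, stood at 87.9% and 84.7% in J2 vehicle and 67.3% and 62.3% in J2 drug, a change of -1.78 ± 0.39 (SE, adjusted p = 2.68e-05), with spliced reads up by 1.75 (adjusted p = 2.57e-06). Intron 8 of RPN2, a subunit of the oligosaccharyltransferase, stood at 68.6% and 83.6%, then 60.8% and 18.1%, a change of -2.34 (adjusted p = 0.0335), and its drug libraries lay far apart. Intron 4 of APAF1, the scaffold of the apoptosome, stood at 100% in both J2 vehicle libraries and at 88.1% and 94.1% in J2 drug, a fitted change of -5.62 (adjusted p = 0.0412) whose size rests on the absence of spliced reads in J2 vehicle. Fits that left out 1 library gave adjusted p of 0.00264 to 0.601 for RPN2, lost without J2 vehicle replicate 2 or J2 drug replicate 2, and 0.0462 to 0.196 for APAF1, which passed only without J2 drug replicate 2.

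Introns with other exons held the clearest falls. Intron 2 of ZNF12, a zinc finger gene, went from 81.9% and 77.9% in J2 vehicle to 18.2% and 14.8% in J2 drug, a change of -4.31 ± 0.90 (SE, adjusted p = 1.13e-05). Intron 2 of TLDC1, crossed by an antisense gene, went from 67.5% and 71.5% to 9.73% and 13.6%, and intron 4 of CLN6, an endoplasmic reticulum protein of neuronal ceroid lipofuscinosis, from 38% and 22.4% to 4.04% and 1.94%, with changes of -4.09 (adjusted p = 2.25e-08) and -3.79 (adjusted p = 5.48e-04). ZNF12 and CLN6 have an exon of the same gene wholly inside the intron. Large rises among introns with other exons were in TMEM63B, an ion channel gene, from 11.4% and 11.4% to 99.8% and 99.3%, and in the mitochondrial sodium-calcium exchanger gene SLC8B1, from 5.63% and 5.56% to 94.1% and 94%.

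Response differed with length, starting level and annotation, given here as counts with no test. Of the introns under 500 bases 74.5% were called higher in J2 drug, of those from 500 to under 2000 bases 58.9%, from 2000 to under 5000 bases 45.9% and of the longer ones 32.2%. The other introns followed the same order at a lower level, with 33.3%, 29.5%, 25.6% and 20.5%. Introns that began at a mean input vehicle share of 10% to 20% were called higher in 56.5% of cases, and those of 80% to 100% in 18.4%. Of the other introns at a mean of 10% to 20%, 50.5% were called higher. Of the 218 introns that a same-gene exon spans whole, 149 (68.3%) rose and 4 fell, and 49.4% of the other introns so spanned rose. In the 64 of them with no further exon over the intron, with a median length of 302 bases, 52 (81.3%) rose and none fell. Among the other introns of that class 45.3% rose. Of the 495 with a same-gene exon wholly inside, 37.2% rose and 5.86% fell, which is 29 of the 46 falls. The other introns with such an exon rose in 28.3% of cases. In the exons beside the introns the median GC content was 57.85% where the ratio rose, 54.75% where it did not pass and 45.15% where it fell. Depth moves with the calls as well: 37.6% of introns with under 50 reads in their shallowest library were called higher, and 67.7% of those with 100 to under 500. For the other introns these were 19.8% and 38.4%.

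**Figure D4:**
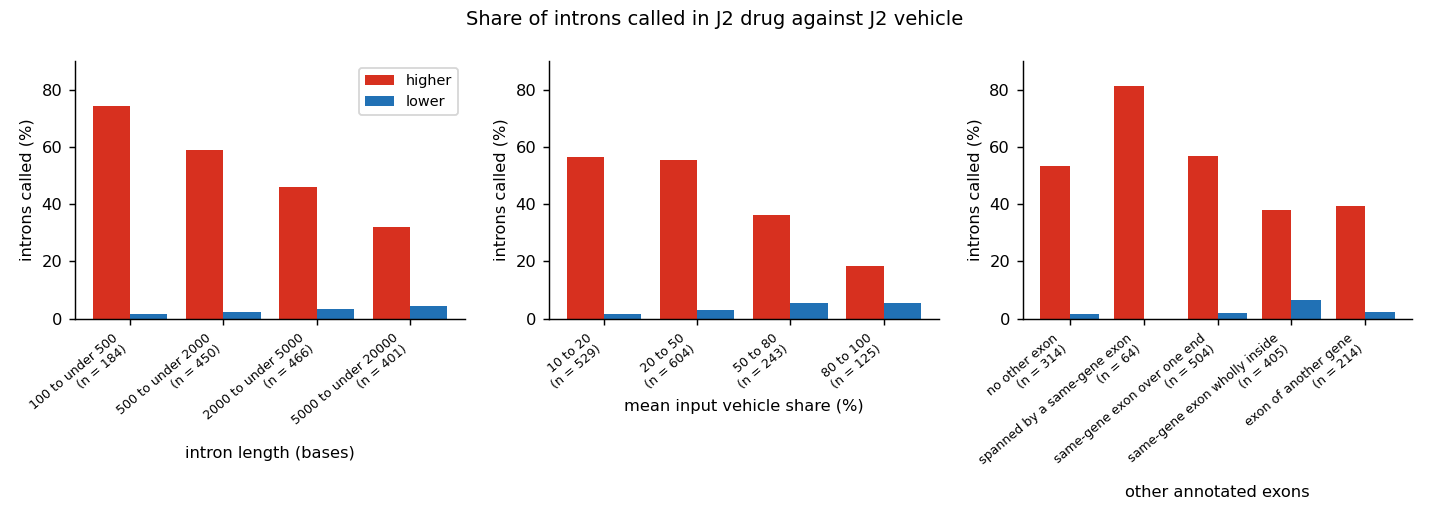
Percentage of the 1501 introns called higher (red) or lower (blue) in J2 drug against J2 vehicle, by intron length, by mean input vehicle share and by other annotated exons over the intron, with each intron in 1 class and introns under an exon of another gene in the last; n is the number of introns in each class. Calls upward fall from 74.5% in the shortest to 32.2% in the longest introns, and calls downward are most frequent, at 6.42%, in the class with a same-gene exon wholly inside.

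Among gene lists, the SR and SR-like splicing regulators held 12 chosen introns in 10 genes, 14.5% of their 83 eligible introns against 7.96% over all genes, and in each of the 12 a same-gene exon lies wholly inside, which is where the poison exons of these genes are known to lie. In J2 drug 1 of the 12 rose and 3 fell, with a median log2 change of -0.29. Over all 1501 introns 49.6% rose and 3.07% fell, and the counts of each list below stand against these. Intron 3 of SRSF3, at chr6:36598984-36601151 with 1634 to 3525 reads in a library, stood at 61.1% and 58.3% in input vehicle, 24.3% and 23.1% in input drug, 59.3% and 61.1% in J2 vehicle and 26.1% and 25.5% in J2 drug. Its ratio fell by 2.12 ± 0.27 (SE, adjusted p = 1.82e-13) on the log2 scale, its intronic reads changed by -2.06 (adjusted p = 1.41e-72) and its spliced reads by 0.06 (adjusted p = 0.625). In SRSF3, an SR protein, both J2 drug libraries lay below both J2 vehicle libraries.

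Intron 2 of RBM39, an SR-like splicing coactivator, fell from 40.7% and 40% to 20.6% and 18.9%, a change of -1.46 (adjusted p = 0.00374). Without J2 drug replicate 2 its adjusted p was 0.0501. The other fall and the rise were in RBM39 at chr20:35713097-35714184 and in SRSF10 at chr1:23975076-23978710, both picked after their values were seen: this RBM39 intron had 80.6% and 78.7% in J2 vehicle and 41.7% and 17.2% in J2 drug, and SRSF10 had 29.4% and 29.8%, then 59.8% and 55.7%. In SRRM2, a scaffold of nuclear speckles, intron 12 stood at 42.3% and 41.7%, then 33.8% and 34.04% and did not pass. Intron 3 of SRSF7 stood at 13.8% and 17.8% in input vehicle, which chose it. It stood at 3.04% and 3.56% in J2 vehicle and 3.52% and 9.25% in J2 drug. Against input drug, its ratio in J2 drug was called higher, with log2 differences of 2.12 to 4.12 when 1 library was left out. That call did not hold in all of these fits.

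Spliceosome components held 13 introns in 12 genes, 4.22% of their eligible introns, of which 7 rose and none fell in J2. Intron 19 of PRPF6, a protein of the U5 and tri-snRNP particles, went from 16.4% and 21.1% to 91.2% and 90.2%, a change of 5.40 (adjusted p = 2.45e-53), and intron 5 of SF3A2, a protein of the U2 particle, from 2.22% and 2% to 19.6% and 15.8%, a change of 3.30 (adjusted p = 6.26e-10). The hnRNP list held 6 introns (4.14%) with 4 rises, among them intron 2 of ELAVL1, the AU-rich element binder HuR, from 62.03% and 62.8% to 90.1% and 87.5%. Intron 13 of PCBP3, a poly(C)-binding protein, rose from 72.2% and 67.9% to 90.2% and 89.2%, a change of 1.89 that was -0.12 under median-of-ratios scaling. The list of CLK, DYRK and SRPK kinases, which also includes the cyclin-dependent kinase gene CDK11A, held 2 (6.67%). Intron 13 of CDK11A, whose near-identical copy CDK11B makes its counts uncertain, rose from 3.98% and 15.6% to 78.99% and 50.6%. Intron 3 of CLK3 stood at 6.08% and 8.06%, then 17.8% and 13.2% and did not pass.

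RNA export, surveillance and decay genes held 11 introns (6.08%) with 7 rises and no fall. Intron 2 of LSM7, a subunit of the LSM rings, rose from 12.7% and 14% to 27.8% and 22.4%, with an adjusted p of 0.00909 that was 0.0526 without J2 vehicle replicate 1. Scaled separately, its change of 1.11 became -0.89 or -0.62. The list of RNA modification and editing enzymes, which also includes the sensor gene DHX58, held 10 introns (9.62%) with 5 rises. Intron 12 of DHX58, which encodes the double-stranded RNA sensor LGP2, rose from 20.1% and 19.7% to 91.8% and 96.5% and intron 12 of the dihydrouridine synthase gene DUS1L from 5.93% and 6.18% to 38.5% and 37.5%. Genes that host snoRNAs held 2 introns (1.08%). In intron 8 of NOP56, which contains SNORD86, the share rose from 15.3% and 18.3% to 51.7% and 50.3%. In intron 5 of RNF149 it rose from 3.23% and 0% to 40% and 23.1%, a call that rests on 2 and 0 intronic reads in J2 vehicle and was lost without J2 vehicle replicate 2 or J2 drug replicate 1 (adjusted p 0.00430 to 0.0937 with 1 library left out).

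OGT and MGEA5, the enzymes that add and remove O-GlcNAc, are known for introns retained in the nucleus. Intron 4 of OGT stood at 92.7% and 95.9% in input vehicle, 90.5% and 88.8% in input drug, 87.8% and 86.5% in J2 vehicle and 90.1% and 91.2% in J2 drug. Intron 10 of MGEA5 stood at 85.5% and 82.9%, 90.8% and 91.7%, 96.4% and 95.7%, then 84.6% and 68.3% in the same order. Both were high in all 8 libraries, both have a same-gene exon inside or over one end, and neither J2 change passed (adjusted p = 0.779 and 0.142).

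The mitosis list held 8 introns (5.56%) in 6 genes with 6 rises and no fall, and a median log2 change of 3.92. Intron 10 of ANAPC2, a subunit of the anaphase-promoting complex, went from 19.4% and 24.7% to 90.3% and 91.99%, and intron 10 of the spindle protein gene TACC3 from 7.59% and 9.30% to 37.1% and 37.9%. The kinetochore gene CENPT rose from 28.1% and 29.9% to 74.1% and 71.3% at intron 11. Its spliced reads changed by -2.06 on the log2 scale, while the change of its intronic reads (0.65) did not pass. Chromatin and histone modifiers held 44 introns (8.998% of 489 eligible) in 28 genes, with 23 rises and 1 fall. Intron 5 of DOT1L, the H3K79 methyltransferase, rose from 79.8% and 82.9% to 97.2% and 97.01%, and intron 8 of BRD9, a bromodomain protein of a BAF complex, from 3.52% and 2.26% to 36.2% and 33.6%.

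The NF-kB list held 7 introns (6.42%) with 4 rises, including intron 6 of MAP3K14, the kinase NIK, from 4.76% and 20% to 81.04% and 84.1%. The amino acid and unfolded protein stress list held 4 introns (3.23%), all called higher, among them intron 12 of EIF2AK4, the amino acid sensor GCN2, from 31.4% and 47.5% to 88.98% and 90.5%. Of that list, intron 10 of EDEM1 was lost without J2 vehicle replicate 1 or 2 or J2 drug replicate 1 (adjusted p 0.0210 to 0.344). Intron 14 of SYVN1 was lost without J2 vehicle replicate 2 or J2 drug replicate 1 or 2 (adjusted p 0.0147 to 0.226) and its change of 1.77 was -0.24 under median-of-ratios scaling. Interferon-stimulated genes held 4 introns (7.27%) with 1 rise: intron 5 of TRIM25, a ubiquitin ligase of the RIG-I pathway, from 4.57% and 5.94% to 17.1% and 14.2%, a change of 1.73 that was -0.27 under median-of-ratios scaling and whose adjusted p ran from 0.0188 to 0.0824 when 1 library was left out, lost without J2 vehicle replicate 1 or J2 drug replicate 1. Against input drug, the ratio of the TRIM25 intron in J2 drug was called lower, with log2 differences of -2.62 to -2.31 when 1 library was left out. In intron 2 of OAS3, an activator of RNase L, the share was 85.9% and 77.1% in J2 vehicle and 83.3% and 77.6% in J2 drug. DNA replication and repair genes held 5 introns (2.92%) with 3 rises, and aminoacyl-tRNA synthetases 8 introns (5.67%) with 3 rises. The p53 and apoptosis list held only the APAF1 intron given above (4.76%). None of the mesenchymal, luminal or immune marker genes held a chosen intron.

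Genes with several such introns differed in how these moved. PKD1, the polycystin-1 gene, had 5, and all 5 rose in J2, with means of 13.8% to 61.1% in vehicle and of 57.3% to 90.1% with drug. PKD1 has near-identical pseudogenes, which makes its counts uncertain. COL16A1, a fibril-associated collagen gene with 70 annotated introns, also had 5 and none passed in J2: intron 56 stood at 39.1% and 57.7% in J2 vehicle and 53.3% and 45.8% in J2 drug, and intron 49 at 25% and 20%, then 16.5% and 24.3%. In ANKRD13D all 4 introns rose, with intron 6 going from 2.82% and 7.56% to 81.4% and 84.9%. NADSYN1, the NAD synthetase gene, had 5 introns, and the ratio rose in 4. In introns 3, 5 and 9 the intronic reads did not pass the test (log2 changes of 0.064, 0.0077 and 0.85). Their spliced reads fell (-1.90, -1.89 and -1.57). ABCC3, an export pump gene, had 4, of which only intron 6 rose, from 13.6% and 10.5% to 60% and 54.5%. For NADSYN1, introns 3 and 5 changed sign slightly under median-of-ratios scaling (-0.019 and -0.12), and introns 3, 5 and 9 were each lost without J2 drug replicate 1, introns 3 and 9 also without J2 vehicle replicate 1, and intron 9 also without J2 vehicle replicate 2. Adjusted p with 1 library left out ran from 0.0162 to 0.144 for intron 3 of NADSYN1, from 0.0258 to 0.0510 for intron 5 and from 0.0101 to 0.290 for intron 9.

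A small group carried the 5′ end of U12-type introns, which the minor spliceosome removes, also with SF3b. Of 731 introns whose first bases could be read from annotated exons (48.7% of the set), 9 (1.23%) began with GTATCCTT or ATATCCTT on the transcript strand, against 19 of 3774 (0.503%) of the other introns. The part of an intron that an exon covers decides whether it could be read, so these shares describe that subset. In J2, 2 of the 9 rose and 7 did not pass, and 6 of the 9 are named here. The intron of HSBP1L1 rose from 65.5% and 56.5% to 91.4% and 88.7%, a change of 2.53 (adjusted p = 0.00169). TMEM258, a subunit of the oligosaccharyltransferase, stood at 23.7% and 20.8% in J2 vehicle and 29.9% and 31.6% in J2 drug, EDC4, a decapping scaffold whose intron is printed above, at 17.5% and 21.6%, then 32.3% and 22.7%, and ZDHHC8, a palmitoyltransferase, at 25.4% and 18.6%, then 34.97% and 32.2%. CRTC3, a CREB coactivator, stood at 40.5% and 26.3%, then 41.9% and 51.4%, and TMEM107 at 26.1% and 28%, then 28.6% and 28.9%. None of these last 5 passed the test.

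At the top of the range, introns free of other exons with at least 50 reads in every library stood near 100% in J2 vehicle. After HFM1, these were intron 4 of NAGS, the N-acetylglutamate synthase gene, at 98.9% and 99.3% in J2 vehicle, intron 26 of the receptor kinase gene ROS1 at 97.5% and 100%, intron 2 of C17orf67 at 97.4% and 98.6% and intron 40 of DOCK1, a Rac exchange factor gene, at 97.6% and 98.02%. None passed the J2 test. In all, 93 introns were at 90% or above in both J2 vehicle libraries.

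The last comparison asked whether J2 enrichment changed the balance once the drug was present. For most introns no difference was detectable: the ratio in J2 drug was higher than in input drug for 41 introns and lower for 41 (2.73% each), against 0.942% higher and 1.47% lower over all introns fitted. Here too the percentages are not like for like, since the rule chose introns with intronic reads. The median log2 difference was -0.09, and -0.08 over all introns. These counts were sensitive to single libraries. Leaving out any 1 of the 4 libraries cut both counts by more than 1.5 times, to 14 and 19 without input drug replicate 1, 10 and 11 without input drug replicate 2, 20 and 25 without J2 drug replicate 1, and 17 and 17 without J2 drug replicate 2.

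Among introns free of other exons, the firmest differences were in HIBADH and RTN4. Intron 5 of HIBADH, an enzyme of valine breakdown, at chr7:27538418-27542966, stood at 19.1% and 16.2% in input drug and 47.7% and 63.7% in J2 drug, a difference of 2.58 ± 0.38 (SE, adjusted p = 8.31e-09), and at 20.9% and 17.6% in input vehicle and 11.7% and 8.92% in J2 vehicle. Only the J2 drug libraries of HIBADH were high. Intron 4 of RTN4, which encodes a reticulon that shapes the endoplasmic reticulum, at chr2:54974765-54982514, stood at 55.4% and 63.6% in input drug and 6.45% and 5.94% in J2 drug, a difference of -4.49 ± 0.56 (SE, adjusted p = 1.53e-12), and at 17.9% and 20.2%, then 6.25% and 2.44% in the vehicle libraries. RTN4 was high in input drug alone. Both calls held in each fit that left out 1 library.

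Intron 31 of NAV2 stood at 11.2% and 8.93% in input drug and 64.1% and 66.3% in J2 drug (difference 4.06, adjusted p = 0.00131; adjusted p = 0.116 without input drug replicate 2). Intron 8 of PUM2, a Pumilio RNA-binding protein, stood at 30.5% and 46.1%, then 90.1% and 87.6%, and intron 3 of the lysosomal mannosidase gene MAN2B2 at 46.2% and 43.8%, then 84.9% and 84.7%. TYRO3 was also higher in J2 drug (difference 2.55, adjusted p = 0.0418). With 1 library left out, adjusted p ran from 0.0331 to 0.149 for PUM2, lost without input drug replicate 1 or J2 drug replicate 1, and the calls of MAN2B2 (0.0906 to 0.189) and TYRO3 (0.0967 to 0.751) were lost without any 1 of the 4.

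Lower in J2 were intron 10 of TGFBRAP1, at 46.9% and 53.6% in input drug and 14.8% and 10.7% in J2 drug, intron 13 of the phosphoinositide phosphatase gene MTMR14, at 62.6% and 56.1%, then 17.7% and 27.4%, intron 3 of TEAD3, a transcription factor of the Hippo pathway, at 68.3% and 69.5%, then 32.9% and 30.6%, and intron 2 of GAS6, the ligand of the TAM receptors, at 45.6% and 42.2%, then 9.38% and 20.1%. In the fits without 1 library, adjusted p ran from 0.0566 to 0.138 for TEAD3, lost without any of the 4, 0.0495 to 0.299 for TGFBRAP1, which passed only without J2 drug replicate 1, 0.0332 to 0.247 for MTMR14, which passed only without J2 drug replicate 2, and 7.82e-04 to 0.172 for GAS6, lost without J2 drug replicate 1.

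Among introns with other exons, intron 2 of TULP4 stood at 17.7% and 19.1% in input drug and 80.2% and 76.9% in J2 drug (difference 4.01, adjusted p = 7.10e-05). TULP4 was low in input drug alone, with 57.9% and 46% in input vehicle and 82.8% and 90.7% in J2 vehicle. Intron 6 of COL4A6, a basement membrane collagen gene, stood at 79.9% and 81.5%, then 96.6% and 98.7% (difference 3.42, adjusted p = 7.69e-05; adjusted p = 0.108 without J2 drug replicate 2). Intron 5 of CREB1, a cAMP-responsive transcription factor, stood at 64.7% and 48.2%, then 93.1% and 94.1%, and its adjusted p of 0.0437 was lost without any of the 4 libraries (0.135 to 0.537). On the low side were intron 20 of the isoleucyl-tRNA synthetase gene IARS, at 96.02% and 98.6%, then 75.8% and 76.3%, intron 5 of ZNF496, at 21.7% and 31.9%, then 2.76% and 1.82%, and intron 2 of the transcription factor gene GATA6, crossed by an antisense gene, at 25.6% and 22.4%, then 1.39% and 0%. IARS was lost without input drug replicate 2 or J2 drug replicate 2 (up to 0.280), ZNF496 without input drug replicate 2 (0.0924) and GATA6 without any of the 4 (0.110 to 0.289).

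**Figure D5:**
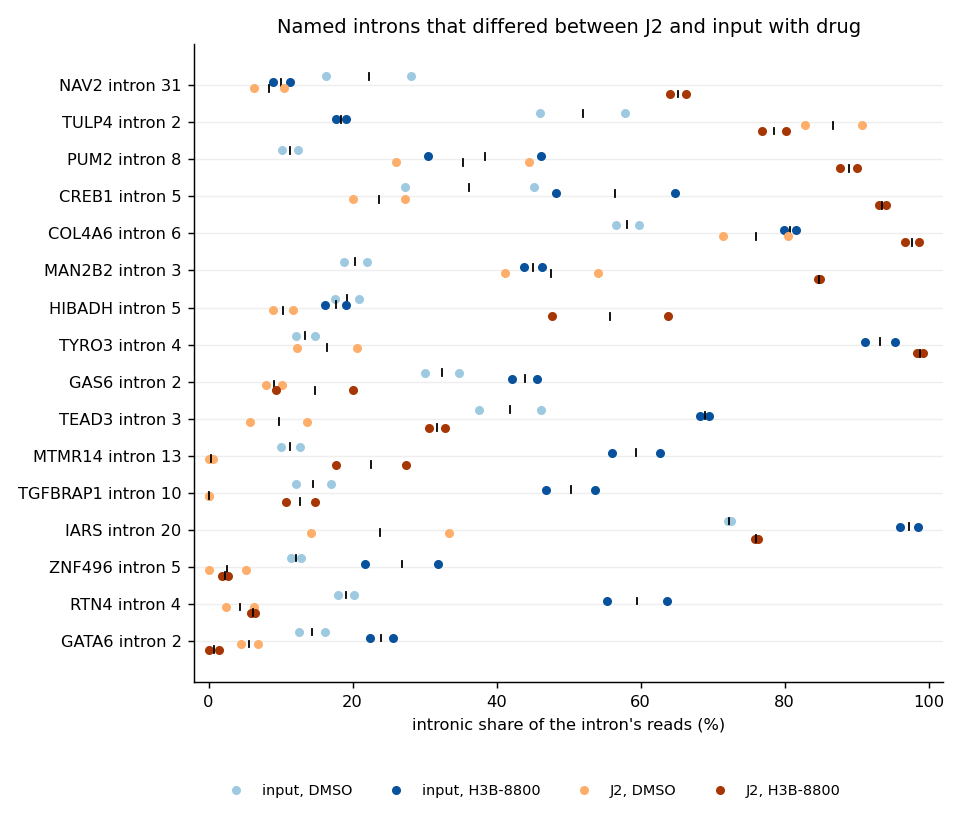
Intronic share (%) in each of the 8 libraries (points) with group means (black ticks) for the named introns that differed between J2 drug and input drug, ordered by the log2 difference. The upper 8, NAV2 to TYRO3, lie higher in J2 drug than in input drug, and the lower 8, GAS6 to GATA6, lie lower.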

How the data were processed

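The deposited tables list, for each intron and library, a count of reads inside the intron, a second count that was taken as reads inside plus reads spliced across, and an RPKM value; the tables have no header, so the meaning of the 2 counts was read from the values. The authors' RPKM equals the first count over intron length and a whole-number library depth, and that depth served as library size here. Alignment was with HISAT2 2.0.4 per the submitters' processing notes, which name the builds hg38 and mm10; the counting tool and its use of strand are not given in the sources used here. 18 introns with no second count were left out.

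Introns were matched to GENCODE release 29 (GRCh38); 1496 of the 1501 coincide with an intron of the host transcript, and intron numbers are counted in it. Intron sequence came only from annotated exons: 14.9% of the introns could be read whole, 48.7% at the 5′ end and 44.9% at the 3′ end, so checks of intron GC content and splice-site scores over the set are void.

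The ratio of intronic to spliced reads was tested with edgeR 4.0.16 (quasi-likelihood; 2 columns and 1 coefficient per library, 4 group ratios) on all 30262 introns with at least 20 reads in every library, and intronic and spliced reads each with edgeR on the same introns; p-values were Benjamini-Hochberg adjusted over all of them. Only J2 drug against J2 vehicle and J2 drug against input drug were tested, because input vehicle chose the introns. Scripts were tested on simulated data. limma 3.58.1 and DESeq2 1.42.0 were alternatives. p-values measure the spread between 2 biological duplicates per group.

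Members and gene lists were chosen with earlier results of these data known. Named introns were the deepest free of other exons, those with the largest tested change each way (at least 50 reads per library compared, same sign in all 4 library pairs, 1 per gene), the deepest per gene list, those beside the 10% limit, genes with most members, U12-type introns and the highest J2 vehicle shares; 8 sequences were picked as stated beside them. Some items that these rules select are not reported here.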

Additional observations from a re-analysis of the deposited data

Results flagged for a closer look

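In 10 of 128 named introns both drug libraries lay on one side of both vehicle libraries in input and on the opposite side in J2. The difference between the 2 drug effects was not tested, since the input vehicle libraries chose the introns. Given as J2 change minus input change of the mean share, in percentage points, the gap was 69.0 for NAV2 intron 31 (-12.1 in input, 56.9 in J2), 41.5 for NADSYN1 intron 10 (-13.6 and 27.9), 18.4 for SNRNP70 intron 7 (-6.73 and 11.7), 11.4 for ABHD12 intron 6 (-2.35 and 9.06) and 8.18 for OGT intron 4 (-4.64 and 3.54). It was -57.9 for RPN2 intron 8 (21.2 in input, -36.7 in J2), -40.3 for C6orf62 intron 3 (18.8 and -21.5), -26.6 for MGEA5 intron 10 (7.04 and -19.6), -14.7 for GATA6 intron 2 (9.68 and -4.98) and -12.9 for PUS1 intron 3 (10.3 and -2.59).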

How the results depend on the processing

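For J2 drug against J2 vehicle, the count of higher ratios stayed within 1.5 times of 745 under both limma fits (874 and 851), the read minimum of 50 or of 10 in 2 libraries, a fit of only the 4 libraries and each left-out library (624 to 665). It moved to 273 (median-of-ratios) and 319 (TMM). With members set at a share of 20% it was 381 of 843, at 5% 1180 of 2328, and among introns free of other exons 220 of 378. Lower ratios (46) numbered 75 and 70 under limma with pseudocounts of 1 and 0.5, 244 and 200 under the 2 scalings, 5 among free introns and 29 to 39 with 1 library left out, fewest without J2 drug replicate 2. For J2 drug against input drug, higher ratios (41) numbered 26 and 22 under limma, 26 with a minimum of 10 reads in 2 libraries, 25 at a share of 20%, 12 among free introns and 10 to 20 with 1 library left out; lower ratios (41) numbered 23 and 15 under limma, 23 at 20%, 63 at 5%, 8 among free introns and 11 to 25 with 1 library left out. Higher intronic reads (861) numbered 424 (TMM), 370 (median-of-ratios), 382 (DESeq2), 533 with at least 50 reads and 251 among free introns, and lower ones (118) 484, 541, 562, 73 and 20 in the same order; with 1 library left out they ran from 760 to 814 and from 76 to 101. Higher spliced reads (273) numbered 155 with at least 50 reads and 65 among free introns, 221 to 273 with 1 library left out; lower ones (700) numbered 436, 166, and 634 to 676. The sets for at least 50 reads and for free introns hold fewer introns. Among free introns the share called differs too (58.2% higher and 1.32% lower, against 46.8% and 3.65% with other exons). Of the other 17352 introns 25.6% of the free ones rose, against 29.35% of all of them. Other causes were not tested.

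The median share moved with the members chosen. At 20%, at 5%, among free introns and with at least 50 reads it was 44.9%, 16.6%, 22.2% and 25.2% in input vehicle, 76.8%, 46.4%, 66.9% and 62.7% in input drug, 45.6%, 12.7%, 19.3% and 22.9% in J2 vehicle, and 77.7%, 43.9%, 67.1% and 61.8% in J2 drug. Median length (2200 to 3026 bases) and the GC content of flanking exons (56.1% to 57.4%) stayed within the spread over introns.

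No pairing by replicate number was detected: deviations of same-numbered libraries correlated between -0.0535 and 0.041. Counting error can hide a weak pairing, so a shared preparation cannot be judged from these values. With the replicate number as a block, 729 ratios were higher and 43 lower in J2 drug against J2 vehicle and 35 each way against input drug, and intronic and spliced counts were 836 and 113, and 266 and 696.

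Of 105 calls on named introns, 39 kept their direction and stayed past the threshold in every alternative run, and 37 were lost when 1 library was left out; a lone library is then assumed to vary like the other groups. Separate scaling reversed the J2 change of PABPC4 (-1.03 by median-of-ratios, -0.75 by TMM), SNRNP70 (-0.89, -0.62), LSM7 (-0.89, -0.62), DAZAP1 (-0.83, -0.55) and SIRT7 (-0.38, -0.11), and by median-of-ratios alone of TRIM25 (-0.27), SYVN1 (-0.24), NADSYN1 introns 3 and 5 (-0.019 and -0.12), PCBP3 (-0.12) and CARS2 (-0.0056). Depth limits the set: 663 of the 1501 introns had under 50 reads in their shallowest library.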
